A study of Mus musculus with 18 samples.

Results

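Type I interferon-stimulated genes are the transcripts that cells switch on when interferon alpha or beta binds its receptor, and 34 of them were described here by gene symbol, of 33235 genes listed in each diet's table. They are listed by name, with no threshold on a measured value, and all 34 were found in both tables and passed the filter on low values in every comparison. The members were, however, chosen with earlier results of these data known. Their shares beside those of all genes are therefore description and not an independent test. They comprise 3 signalling factors (Irf7, Irf9 and Stat2), 4 nucleic acid sensors (Ifih1, Dhx58, Zbp1 and Eif2ak2), 5 genes of the oligoadenylate synthetase family, 4 Ifit genes and 3 genes of the ISG15 system. The other members are 6 antiviral effectors, 3 genes of the Parp9, Parp14 and Dtx3l group, and 6 interferon-stimulated genes of other or less settled function.

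Liver mRNA was sequenced from mice given an antisense oligonucleotide (ASO) against Mdm2 or a control ASO. Mdm2 is the main negative regulator of p53 and acts by ubiquitin ligation. Both oligonucleotides carried GalNAc, a sugar taken up by the asialoglycoprotein receptor of hepatocytes, so every group, the controls included, had received a GalNAc-linked ASO. The 4 groups were GalNAc-Mdm2ASO on CDAHFD (5 libraries), GalNAc-conASO on CDAHFD (5 libraries), GalNAc-Mdm2ASO on HFHC (3 libraries) and GalNAc-conASO on HFHC (4 libraries). Controls are labelled WT and Mdm2 ASO samples MDM2 knockdown under genotype, while the diets appear in the labels by these abbreviations alone. Strain, sex, age, dose and duration are not given in the sources used here. The columns of Mdm2 ASO replicates 6 and 7 on HFHC did not differ in any of the 33235 genes, so they entered once, as library 6-7. The 18 samples thus made 17 libraries, of 22.4 to 31.5 M reads on CDAHFD and 17.8 to 18.8 M reads on HFHC. The labels do not say that the samples of a group came from separate animals, so p-values measure the spread between these samples, which may be technical.

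Values are TMM-normalized counts, in which the counts of a library share 1 scaling factor, and stand in the order of the replicate numbers. They are not divided by transcript length, so they compare libraries within a gene and a diet, never genes with each other. The tables of the diets were normalized separately, so no level is set against one of the other diet. Fold changes set Mdm2 ASO over control ASO on the log2(value + 0.5) scale, which understates changes of low genes. They come from limma-trend, and a gene rose or fell where its adjusted p over all genes tested was under 0.05. The difference between diets is the CDAHFD fold change minus the HFHC fold change, tested in 1 fit over all 17 libraries. Mdm2 itself had 861, 566, 646, 564 and 598 normalized counts in Mdm2 ASO libraries, against 1443, 1572, 1516, 1650 and 1644 in control ASO libraries on CDAHFD. On HFHC it had 420, 362 and 304 in Mdm2 ASO libraries, against 907, 954, 963 and 956 in control ASO libraries, so the groups did not overlap on either diet and the target matched the labels in every library. None of 10 hepatocyte markers was at 0 in the libraries and none passed a test on either diet, and the samples carry the liver label in all groups. On CDAHFD 5 of these markers had an unadjusted p under 0.05. For the difference between diets 1 passed, Asgr1 (0.49, adjusted p = 0.023).

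Interferon alpha and beta signal through the receptor pair Ifnar1 and Ifnar2 and the kinases Jak1 and Tyk2, which activate STAT factors. Stat2 and Irf9 take part in the complex ISGF3, which binds a DNA element called the interferon-stimulated response element (ISRE) in the promoters of its targets. The products then detect foreign RNA or DNA, block viral translation and release, raise the production of more interferon, or, as with Usp18, hold the receptor in check. Hepatocytes respond to these interferons, and so do the macrophages, endothelial cells and leukocytes of the liver. In RNA from whole liver, fewer cells of a type and less RNA per cell cannot be told apart.

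Promoter sequences from RefSeq on GRCm38.p6 were matched by symbol for 24 of the 34 members. They gave 27 windows of 250 bases before to 50 bases after the start, since 3 members had more than 1 window. The ISRE core was searched on both strands as GAAA, any 2 bases, and GAAA again. It lay in 13 of the 27 windows (48.1%) and in 3.44% of all 32851 windows of the table. The longer form, with CT after the second GAAA, contains the core, and lay in 25.9% of member windows and 0.271% of all windows. The GAS element TTCNNNGAA, the site named for interferon gamma activation and its own reverse complement, lay in 18.5% of member windows and 8.3% of all. The 12 members with a core were Bst2, Eif2ak2, Ifih1, Ifit1, Ifit3, Ifit3b, Isg15, Oas1a, Oas3, Rsad2, Stat2 and Trim30a. A match describes letters and not a bound site, and a window without these letters says nothing of the factor.

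The 250 bases before the start are shown for 6 of them, with the core in capitals. They include the 3 members with a core whose fold changes on CDAHFD were lowest (Rsad2, Ifit3b and Ifit1), the near copy Ifit3, the modifier Isg15 that passed in no comparison, and Stat2. Stat2 is shown because its fold change was higher on CDAHFD than on HFHC. Coordinates are on GRCm38.p6, and each sequence reads from the base farthest before the start to the base next to it.
Ifit1, chr19:34640639-34640888, plus strand: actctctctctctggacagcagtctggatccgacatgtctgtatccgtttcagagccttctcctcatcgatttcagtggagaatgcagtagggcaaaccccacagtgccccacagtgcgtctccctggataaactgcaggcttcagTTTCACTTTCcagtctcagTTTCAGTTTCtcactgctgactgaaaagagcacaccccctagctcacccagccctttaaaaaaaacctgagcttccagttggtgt
Ifit3, chr19:34583279-34583528, plus strand: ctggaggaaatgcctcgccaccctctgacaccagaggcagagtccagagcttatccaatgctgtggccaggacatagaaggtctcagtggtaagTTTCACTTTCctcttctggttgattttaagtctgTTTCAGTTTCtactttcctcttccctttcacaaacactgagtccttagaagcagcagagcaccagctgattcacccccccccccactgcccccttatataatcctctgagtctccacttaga
Ifit3b, chr19:34607707-34607956, plus strand: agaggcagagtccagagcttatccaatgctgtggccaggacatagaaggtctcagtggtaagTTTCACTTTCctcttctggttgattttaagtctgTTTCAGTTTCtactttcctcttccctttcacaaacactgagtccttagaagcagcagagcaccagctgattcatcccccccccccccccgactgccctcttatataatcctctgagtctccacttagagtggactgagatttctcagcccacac
Rsad2, chr12:26456453-26456702, minus strand: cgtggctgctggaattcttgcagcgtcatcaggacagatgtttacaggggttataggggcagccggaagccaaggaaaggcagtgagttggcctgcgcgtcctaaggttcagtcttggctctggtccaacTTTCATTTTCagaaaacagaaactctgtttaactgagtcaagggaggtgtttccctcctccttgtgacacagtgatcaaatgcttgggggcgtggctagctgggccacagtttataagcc
Isg15, chr4:156200819-156201068, minus strand: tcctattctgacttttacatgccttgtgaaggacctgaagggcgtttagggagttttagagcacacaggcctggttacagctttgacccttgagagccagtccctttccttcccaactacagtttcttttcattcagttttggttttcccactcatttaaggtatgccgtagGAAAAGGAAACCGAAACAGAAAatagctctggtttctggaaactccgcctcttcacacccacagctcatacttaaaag
Stat2, chr10:128270248-128270497, plus strand: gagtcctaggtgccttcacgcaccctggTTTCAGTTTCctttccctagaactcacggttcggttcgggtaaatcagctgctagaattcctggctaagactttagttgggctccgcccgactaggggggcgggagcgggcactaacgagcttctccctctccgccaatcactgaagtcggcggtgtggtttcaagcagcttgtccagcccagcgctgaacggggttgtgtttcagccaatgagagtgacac
Ifit1, Ifit3 and Ifit3b each held the core letters TTTCACTTTC and then TTTCAGTTTC, and Stat2 held TTTCAGTTTC once. Over the full windows, Ifit3 and Ifit3b aligned without gaps at a shift of 32 bases with 201 of 268 bases equal (75.0%). Isg15 held 3 overlapping cores, beginning 78 bases before its start. Members with a core fell on CDAHFD in 6 of 12 cases (median log2 fold change -0.50), and members whose windows held none fell in 6 of 12 cases (median -0.44). On HFHC, 3 of the 12 members with a core rose and 1 fell, against 3 and 2 of the 12 without one. Of the 10 members that had no window, 4 fell on CDAHFD (median -0.40), and 3 rose and 2 fell on HFHC. For scale, 6.86% of all genes tested fell on CDAHFD, and 16.8% rose and 13.8% fell on HFHC.

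Over the 34 genes, the Mdm2 ASO livers on CDAHFD had lower interferon-stimulated transcripts and those on HFHC had a mixture of higher and lower ones. On CDAHFD, 16 members fell (47.1%) and 0 rose, while 6.86% of the 16803 genes tested fell and 6.12% rose. The median log2 fold change of the members was -0.44, against 0.00 over all genes tested, and the range ran from -1.24 for Rsad2 to 0.24 for Ifi35. In 9 members every Mdm2 ASO library lay below every control library, a pattern found in 5.62% of all genes tested, and in 0 members did every one lie above (4.95% of all genes). The other 18 members did not pass, and with those that did 27 members had an unadjusted p under 0.05. The count of members that fell ranged from 8 to 21 when 1 library was left out: it was 8 without control ASO replicate 2 and 10 without control ASO replicate 4. The count of members that rose was 1 by DESeq2, in a fit of all 4 groups, and without Mdm2 ASO replicate 10, the member being Ifi35 each time.

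On HFHC, 9 members rose (26.5%) and 5 fell (14.7%), where 16.8% of the 17441 genes tested rose and 13.8% fell, so the share that fell was near the background. The median of the members was 0.24, against -0.01 over all genes, with a range of -0.62 for Usp18 to 0.91 for Trim30a. Every Mdm2 ASO library lay above every control library in 10 members and below in 6, patterns found in 20.7% and 18.0% of all genes. Without Mdm2 ASO replicate 9, 5 members rose, and without control ASO replicate 4, 2 fell. Under library-size scaling, which raises the median of all genes to 0.096, 11 members rose and 1 fell. Under quantile normalization, which lowers it to -0.111, 6 rose and 6 fell. The split of all calls moved with it, since 55.0% of all HFHC calls were higher as deposited, 40.0% under quantile normalization and 69.9% under library-size scaling.

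**Figure D1:**
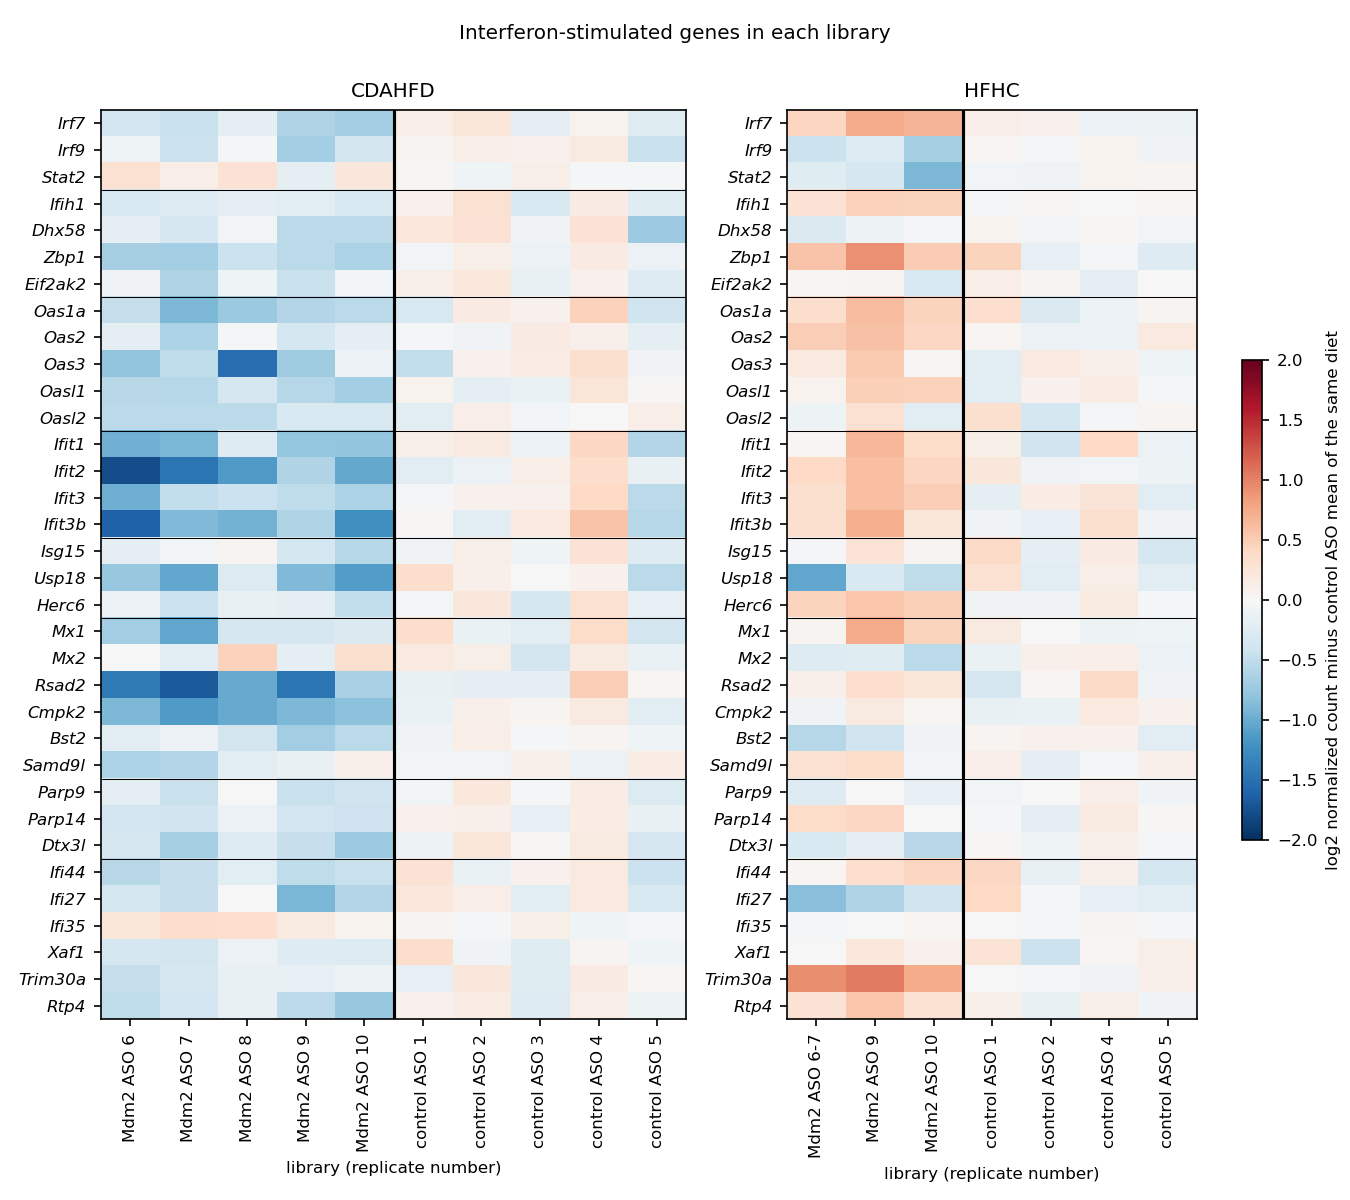
Log2 normalized count of each of the 34 members (down the page, grouped by role) in each library (across), minus the mean of the control ASO libraries of the same diet, with CDAHFD at the left and HFHC at the right and Mdm2 ASO libraries left of the thick line in each panel. The CDAHFD Mdm2 ASO columns are blue for most members, with 30 to 33 of 34 members below the control mean in each, whereas the HFHC Mdm2 ASO columns mix red and blue.

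The difference between diets passed for 19 of 34 members. In 18 of them (52.9%) the CDAHFD fold change was the lower one, against 13.6% of the 16333 genes tested, and in 1, Stat2, it was the higher one (2.94%, against 9.83% of genes). The median difference was -0.68, with a range of -1.68 for Ifit2 to 0.64 for Stat2, and the median over all genes was 0.01. By sign alone, 22 of the members had a fold change below 0 on CDAHFD and above 0 on HFHC, which 23.0% of all genes tested had. A further 9 were below 0 on both diets, 3 were above 0 on CDAHFD and below 0 on HFHC, and 0 were above 0 on both. Ifit2, Ifit3, Irf7, Rtp4 and Zbp1 fell on CDAHFD and rose on HFHC, a combination met by 143 of all genes tested (0.876%). Dtx3l and Usp18 fell on both diets, as did 2.83% of genes. No member rose on both (1.09% of genes) or rose on CDAHFD and fell on HFHC (0.82%). Leaving out any 1 library kept the number of members with a lower CDAHFD fold change between 16 and 19.

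**Figure D2:**
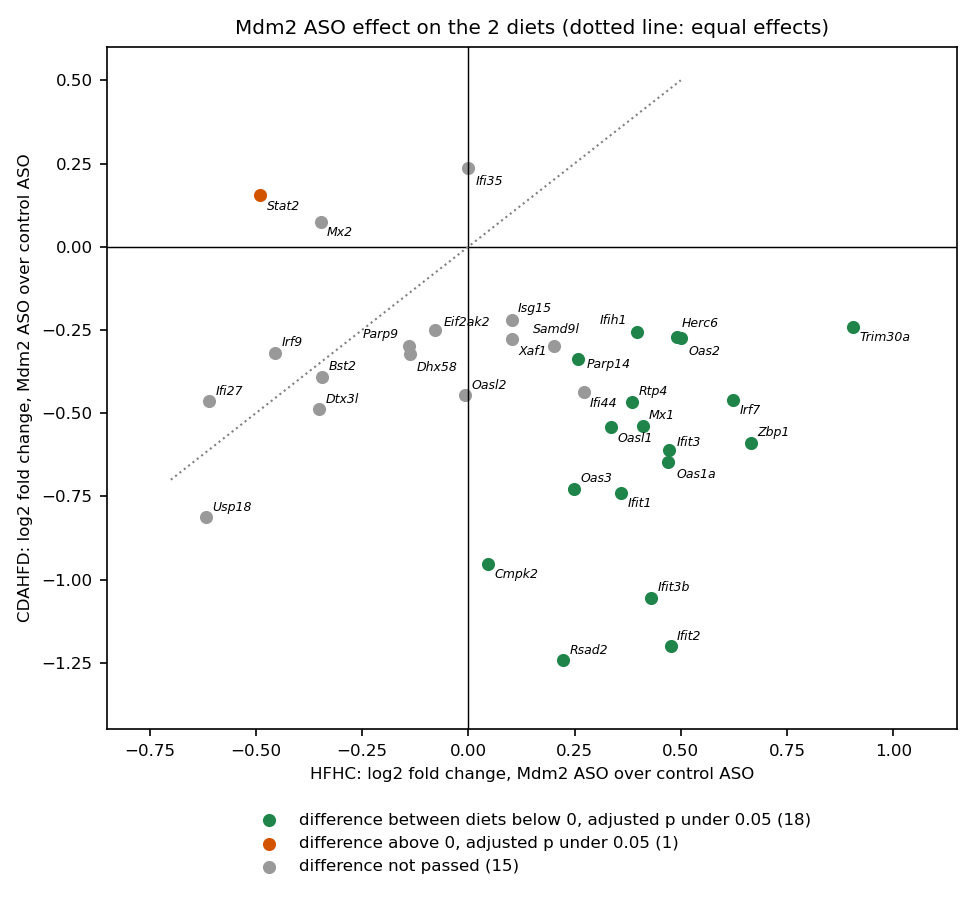
Log2 fold change of each member on CDAHFD (vertical axis) and on HFHC (horizontal axis), 1 point per gene, coloured by whether the difference between the diets passed (adjusted p under 0.05). The 18 green members lie below the dotted line of equal effects, down to Ifit2 and Rsad2, and Stat2 (orange) lies above it.

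The signalling factors did not move as 1 group. Irf7 (ENSMUSG00000025498), the transcription factor that amplifies interferon production and is itself induced by ISGF3, fell on CDAHFD and rose on HFHC. On CDAHFD, Irf7 had 1180, 1128, 1339, 1008 and 960 normalized counts in Mdm2 ASO libraries, against 1675, 1823, 1338, 1610 and 1294 in control ASO libraries. Mdm2 ASO replicate 8 lay above control ASO replicates 3 and 5, so the groups overlapped (log2 fold change -0.46 with SE 0.11, adjusted p = 0.018). On HFHC, Irf7 had 1537, 1910 and 1826 in Mdm2 ASO libraries, against 1245, 1201, 1053 and 1057 in control ASO libraries. All 3 Mdm2 ASO libraries were above all 4 controls (log2 fold change 0.62 with SE 0.10, adjusted p = 0.00135). The fold changes differed between the diets (-1.08, SE 0.17, adjusted p = 1.2e-04). The Irf7 call on CDAHFD was lost without control ASO replicate 2 (-0.40, adjusted p = 0.0543).

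Stat2 and Irf9, which act together in ISGF3, fell on HFHC. On HFHC, Stat2 had 1861, 1745 and 1173 normalized counts in Mdm2 ASO libraries, against 2116, 2087, 2305 and 2272 in control ASO libraries. No library overlapped between the groups, and Mdm2 ASO replicate 10 was the lowest (log2 fold change -0.49 with SE 0.14, adjusted p = 0.0289). On CDAHFD it had 4104, 3675, 4066, 2960 and 3897 in Mdm2 ASO libraries, against 3406, 3157, 3611, 3281 and 3251 in control ASO libraries. There 4 of the Mdm2 ASO libraries were above every control and replicate 9 was below them all. Stat2 did not pass on CDAHFD with or without that library (log2 fold change 0.15 with SE 0.09, adjusted p = 0.297). Its difference between diets was above 0 (0.64, SE 0.17, adjusted p = 0.0103). Irf9 on HFHC had 654, 731 and 556 normalized counts in Mdm2 ASO libraries, against 903, 863, 921 and 838 in control ASO libraries. Its HFHC groups were apart as well (log2 fold change -0.45 with SE 0.10, adjusted p = 0.00692). On CDAHFD, Irf9 had 1287, 1012, 1340, 851 and 1052 in Mdm2 ASO libraries, against 1416, 1497, 1446, 1542 and 997 in control ASO libraries. A low control ASO replicate 5 fell among the Mdm2 ASO libraries there (log2 fold change -0.32 with SE 0.14, adjusted p = 0.15).

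The Stat2 call on HFHC was lost without control ASO replicate 4 or 5 (log2 fold changes of -0.47 each, adjusted p from 0.0709 to 0.0739). It was also lost under quantile normalization (-0.47, adjusted p = 0.0581) and library-size scaling (-0.38, adjusted p = 0.12). Library-size scaling ended the Stat2 difference too (0.53, adjusted p = 0.0564), and the Irf9 call on HFHC (-0.35, adjusted p = 0.056). Irf9 passed on CDAHFD without control ASO replicate 5 (-0.43, adjusted p = 0.0351).

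**Figure D3:**
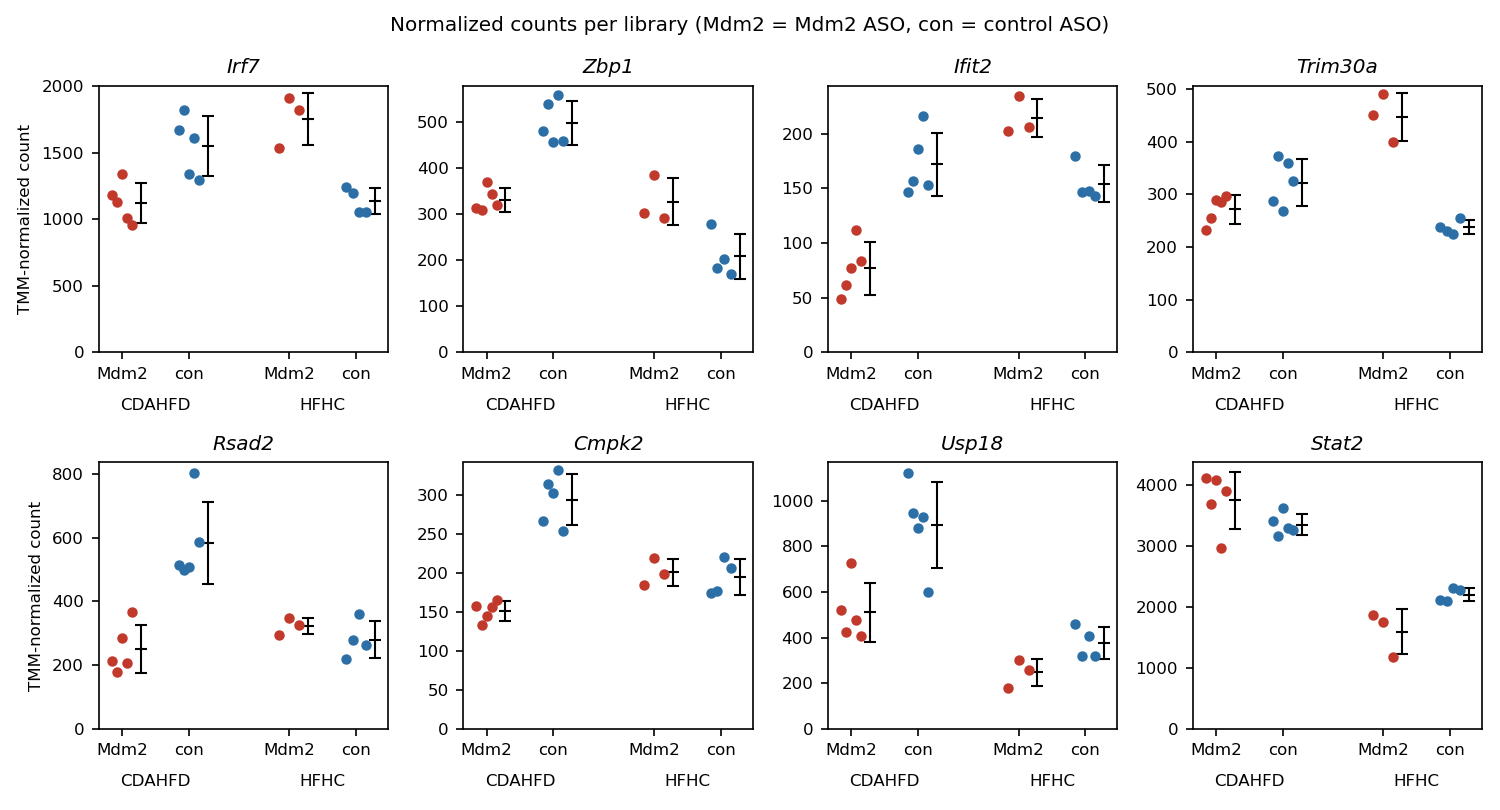
TMM-normalized counts of 8 members in every library, with Mdm2 ASO (red) left of control ASO (blue) on CDAHFD and then on HFHC, and the mean and SD of each group beside its points. Zbp1, Ifit2, Rsad2 and Cmpk2 separate on CDAHFD with the Mdm2 ASO libraries below. On HFHC, Irf7, Zbp1, Ifit2 and Trim30a separate with the Mdm2 ASO libraries above, and Stat2 and Usp18 separate with the Mdm2 ASO libraries below.

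Among the sensors, Zbp1 and Ifih1 rose on HFHC and Zbp1 fell on CDAHFD. Zbp1 binds nucleic acid in the Z form and can start necroptosis. On CDAHFD, Zbp1 had 313, 308, 368, 343 and 319 normalized counts in Mdm2 ASO libraries, against 480, 537, 456, 557 and 457 in control ASO libraries. The lowest control was above the highest Mdm2 ASO library (log2 fold change -0.59 with SE 0.10, adjusted p = 0.00204). On HFHC, Zbp1 had 303, 385 and 292 in Mdm2 ASO libraries, against 278, 183, 202 and 170 in control ASO libraries. The groups were apart again, in the opposite order (log2 fold change 0.66 with SE 0.18, adjusted p = 0.0181), and the diets differed (-1.25, SE 0.19, adjusted p = 1.0e-04). Ifih1 encodes MDA5, the receptor of long double-stranded RNA. On HFHC it had 604, 682 and 678 normalized counts in Mdm2 ASO libraries, against 483, 502, 492 and 508 in control ASO libraries. Every Mdm2 ASO library was above every control (log2 fold change 0.40 with SE 0.08, adjusted p = 0.00372). Its CDAHFD libraries held 625, 655, 690, 678 and 632 with the Mdm2 ASO, against 834, 964, 634, 880 and 661 with the control ASO. The Mdm2 ASO libraries were close together and 3 of the 5 controls lay above them (-0.26, adjusted p = 0.154). The difference between diets passed (-0.66, SE 0.15, adjusted p = 0.00442).

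Dhx58, the LGP2 partner of MDA5, averaged 416 ± 60.5 in Mdm2 ASO libraries and 533 ± 135 in control ASO libraries on CDAHFD. It did not pass there (-0.32, adjusted p = 0.253) or on HFHC (-0.14, adjusted p = 0.29). Eif2ak2, the kinase PKR that halts translation on double-stranded RNA, did not pass on CDAHFD (-0.25, adjusted p = 0.256) or HFHC (-0.08, adjusted p = 0.672). The Zbp1 call on HFHC was lost without control ASO replicate 5 or Mdm2 ASO replicate 9 (log2 fold changes of 0.54 to 0.58, adjusted p from 0.0501 to 0.0861). Dhx58 passed on CDAHFD without control ASO replicate 5 (-0.50, adjusted p = 0.0203).

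The oligoadenylate synthetases make the short nucleotide chains that activate the nuclease RNase L, and the Oasl proteins are their relatives. On CDAHFD 3 of the 5 members of this family fell, and on HFHC 1 rose. Of all genes tested, 6.86% fell on CDAHFD and 16.8% rose on HFHC, so the HFHC count was near the background. Oasl1 restrains the translation of Irf7 in mouse cells. On CDAHFD, Oasl1 had 408, 406, 480, 407 and 374 normalized counts in Mdm2 ASO libraries, against 630, 526, 550, 711 and 613 in control ASO libraries. All Mdm2 ASO libraries were below all controls (log2 fold change -0.54 with SE 0.10, adjusted p = 0.00459). On HFHC it averaged 393 ± 60.7 in Mdm2 ASO libraries and 310 ± 34.5 in control ASO libraries, with overlap (0.34, adjusted p = 0.0838), and the diets differed (-0.88, SE 0.17, adjusted p = 8.7e-04). Oasl2 on CDAHFD had 242, 242, 246, 287 and 283 normalized counts in Mdm2 ASO libraries, against 305, 386, 341, 354 and 385 in control ASO libraries. Its groups did not overlap either (log2 fold change -0.44 with SE 0.11, adjusted p = 0.0157), and Oasl2 did not pass on HFHC (-0.01, adjusted p = 0.982). Oas1a on CDAHFD had 173, 129, 143, 160 and 165 normalized counts in Mdm2 ASO libraries, against 192, 269, 255, 329 and 182 in control ASO libraries. Again every Mdm2 ASO library was below every control (log2 fold change -0.65 with SE 0.17, adjusted p = 0.0213). On HFHC, Oas1a had 167, 200 and 178 in Mdm2 ASO libraries, against 165, 107, 121 and 136 in control ASO libraries. Every Mdm2 ASO library was above every control, although the test was not passed (0.47, adjusted p = 0.051).

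Oas2 rose on HFHC, with 438, 470 and 417 normalized counts in Mdm2 ASO libraries, against 319, 287, 288 and 359 in control ASO libraries. The HFHC groups did not overlap (log2 fold change 0.50 with SE 0.10, adjusted p = 0.00556). Its CDAHFD libraries held 382, 278, 425, 340 and 381 with the Mdm2 ASO, against 426, 412, 486, 466 and 380 with the control ASO. Those groups overlapped (-0.27, adjusted p = 0.154). Oas3 on CDAHFD held 51.3, 62.8, 30.6, 54.6 and 82.6 with the Mdm2 ASO, against 63.3, 94.3, 99.1, 112 and 85.1 with the control ASO. It passed on neither diet (-0.73, adjusted p = 0.0736 on CDAHFD and 0.25, adjusted p = 0.318 on HFHC). The differences between diets passed for Oas1a (-1.12, adjusted p = 0.00296), Oas2 (-0.77, adjusted p = 0.00276) and Oas3 (-0.98, adjusted p = 0.0484), and not for Oasl2 (-0.44, adjusted p = 0.115).

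In GENCODE M21 transcripts, 57.6% of the 50-base words of Oas1a also occur in other genes, with its near copy Oas1g first among them. Reads of the pair could be split between them, so the Oas1a values are uncertain. The Oas1a call on CDAHFD was lost without control ASO replicate 2 or 4 or Mdm2 ASO replicate 7 or 8 (log2 fold changes of -0.62 to -0.53, adjusted p from 0.052 to 0.0626). That of Oasl2 was lost without control ASO replicate 2 (-0.41, adjusted p = 0.0502). On HFHC, Oas1a passed without control ASO replicate 1 (0.58, adjusted p = 0.0168). It passed as well with a filter of at least 10 (0.47, adjusted p = 0.0456), under library-size scaling (0.58, adjusted p = 0.0496) and by DESeq2 (0.45, adjusted p = 0.0472). Oasl1 passed on HFHC without Mdm2 ASO replicate 6-7 (0.47, adjusted p = 0.0181) and under library-size scaling (0.44, adjusted p = 0.0211). Oas3 passed on CDAHFD without Mdm2 ASO replicate 10 (-0.88, adjusted p = 0.0327). It also passed there in the fit of all 4 groups (-0.73, adjusted p = 0.0284), under quantile normalization (-0.78, adjusted p = 0.0337) and by DESeq2 (-0.69, adjusted p = 0.0309). The Oas3 difference was lost when any of 14 libraries was left out (differences of -1.09 to -0.78, adjusted p from 0.0503 to 0.138), and under quantile normalization (-0.79, adjusted p = 0.0737) or with no filter (-0.98, adjusted p = 0.0582). The Oasl2 difference passed without control ASO replicate 1 on HFHC (-0.55, adjusted p = 0.047).

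All 4 Ifit genes, whose products bind foreign RNA ends and block translation, fell on CDAHFD, and Ifit2 and Ifit3 rose on HFHC. On CDAHFD, Ifit2 (ENSMUSG00000045932) had 49.2, 61.8, 77.1, 112 and 83.7 normalized counts in Mdm2 ASO libraries, against 147, 157, 186, 217 and 153 in control ASO libraries. The fitted ratio was 0.436 and the groups did not overlap (log2 fold change -1.20 with SE 0.21, adjusted p = 0.00274). On HFHC, Ifit2 had 203, 235 and 206 in Mdm2 ASO libraries, against 180, 147, 148 and 143 in control ASO libraries. The order was the opposite, again without overlap (log2 fold change 0.48 with SE 0.12, adjusted p = 0.0155). Its difference between diets was the most negative of the 34 members (-1.68, SE 0.28, adjusted p = 2.4e-04). Ifit3 on CDAHFD had 296, 413, 432, 409 and 375 normalized counts in Mdm2 ASO libraries, against 568, 617, 622, 770 and 403 in control ASO libraries. Control ASO replicate 5 was low and fell inside the Mdm2 ASO range (log2 fold change -0.61 with SE 0.15, adjusted p = 0.0196). On HFHC, Ifit3 had 488, 590 and 545 in Mdm2 ASO libraries, against 341, 429, 466 and 336 in control ASO libraries. The highest control was below the lowest Mdm2 ASO library (log2 fold change 0.47 with SE 0.13, adjusted p = 0.0242).

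Ifit3b, the near copy of Ifit3, had 42.9, 72.2, 69.2, 88.1 and 56.6 normalized counts in Mdm2 ASO libraries, against 136, 115, 152, 197 and 89.7 in control ASO libraries on CDAHFD. No control fell inside the Mdm2 ASO range (log2 fold change -1.05 with SE 0.24, adjusted p = 0.0109). On HFHC it averaged 122 ± 22.4 in Mdm2 ASO libraries and 90.1 ± 14.2 in control ASO libraries and did not pass (0.43, adjusted p = 0.0922). Ifit1 on CDAHFD had 236, 242, 381, 268 and 266 normalized counts in Mdm2 ASO libraries, against 495, 517, 424, 610 and 304 in control ASO libraries. Control ASO replicate 5 was below Mdm2 ASO replicate 8, the only crossing (log2 fold change -0.74 with SE 0.18, adjusted p = 0.0156). On HFHC the test of Ifit1 was not passed (0.36, adjusted p = 0.219). The diets differed for Ifit1 (-1.10, adjusted p = 0.0111), Ifit3 (-1.08, adjusted p = 0.00224) and Ifit3b (-1.49, adjusted p = 0.00304).

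Of the 50-base words of Ifit3 transcripts 51.2% also occur in other genes, as do 45.0% of those of Ifit3b. Reads could be split between this pair, so each value is uncertain. The Ifit3 call on CDAHFD was lost without control ASO replicate 2 or 4 (log2 fold changes of -0.59 to -0.51, adjusted p from 0.0527 to 0.0531). On HFHC, the Ifit2 call was lost without Mdm2 ASO replicate 9 (0.41, adjusted p = 0.0766). It was also lost under quantile normalization (0.29, adjusted p = 0.077) and in a fit of all 4 groups (0.48, adjusted p = 0.109). The Ifit3 call on HFHC was lost without control ASO replicate 1 or 5 or Mdm2 ASO replicate 9 or 10 (log2 fold changes of 0.40 to 0.46, adjusted p from 0.0565 to 0.103) and in the fit of all 4 groups (0.47, adjusted p = 0.0561).

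The 3 genes of the ISG15 system went different ways. Usp18, which removes the ubiquitin-like modifier Isg15 from proteins and holds back signalling at Ifnar2, fell on both diets. On CDAHFD, Usp18 had 519, 426, 727, 475 and 405 normalized counts in Mdm2 ASO libraries, against 1120, 945, 878, 926 and 600 in control ASO libraries. Mdm2 ASO replicate 8 was above control ASO replicate 5, the only crossing (log2 fold change -0.81 with SE 0.17, adjusted p = 0.00832). On HFHC, Usp18 had 181, 301 and 260 in Mdm2 ASO libraries, against 460, 318, 407 and 319 in control ASO libraries. Every control was above every Mdm2 ASO library (log2 fold change -0.62 with SE 0.19, adjusted p = 0.0361), and the difference between diets did not pass (-0.19, SE 0.29, adjusted p = 0.679). Herc6 is the main ligase that attaches Isg15 in mouse. On HFHC, Herc6 had 189, 203 and 192 normalized counts in Mdm2 ASO libraries, against 131, 131, 157 and 135 in control ASO libraries. The groups were apart (log2 fold change 0.49 with SE 0.11, adjusted p = 0.00992). On CDAHFD it averaged 217 ± 25.1 in Mdm2 ASO libraries and 264 ± 49.4 in control ASO libraries and did not pass (-0.27, adjusted p = 0.232), and its difference passed (-0.76, adjusted p = 0.00832).

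Isg15 itself averaged 449 ± 73.1 in Mdm2 ASO libraries and 522 ± 76.6 in control ASO libraries on CDAHFD (-0.22, adjusted p = 0.29). On HFHC Isg15 averaged 294 ± 32.4 in Mdm2 ASO libraries and 278 ± 63.8 in control ASO libraries (0.10, adjusted p = 0.694). It passed on neither diet. The Usp18 call on HFHC was lost without control ASO replicate 1 or 4 or Mdm2 ASO replicate 6-7 or 10 (log2 fold changes of -0.67 to -0.41, adjusted p from 0.0588 to 0.102), and under library-size scaling (-0.51, adjusted p = 0.0862). Under quantile normalization Herc6 lost its HFHC call (0.31, adjusted p = 0.0759) and its difference (-0.57, adjusted p = 0.0533).

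Of the 6 antiviral effectors, Rsad2, Cmpk2 and Bst2 fell on CDAHFD and none passed on HFHC. Rsad2 (ENSMUSG00000020641) encodes viperin, a radical enzyme that makes a chain-terminating nucleotide, and had the lowest fold change of the 34 members on CDAHFD. There it had 214, 178, 285, 208 and 365 normalized counts in Mdm2 ASO libraries, against 515, 498, 507, 804 and 586 in control ASO libraries. The fitted ratio was 0.423, without overlap (log2 fold change -1.24 with SE 0.19, adjusted p = 0.00126). On HFHC the Rsad2 values were 294, 346 and 325 in Mdm2 ASO libraries, against 219, 278, 359 and 262 in control ASO libraries. The HFHC groups overlapped (0.22, adjusted p = 0.311). Cmpk2 encodes a mitochondrial nucleotide kinase that feeds viperin's reaction and starts near Rsad2 on chromosome 12, on the opposite strand. On CDAHFD, Cmpk2 had 157, 133, 145, 156 and 165 normalized counts in Mdm2 ASO libraries, against 267, 314, 303, 332 and 253 in control ASO libraries. All controls were above all Mdm2 ASO libraries (log2 fold change -0.95 with SE 0.12, adjusted p = 4.1e-04). On HFHC it averaged 201 ± 17.6 in Mdm2 ASO libraries and 195 ± 22.8 in control ASO libraries (0.05, adjusted p = 0.809). The diets differed for Rsad2 (-1.47, SE 0.28, adjusted p = 9.1e-04) and for Cmpk2 (-1.0, SE 0.17, adjusted p = 2.7e-04).

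Bst2, or tetherin, holds budding virus particles at the cell surface. On CDAHFD, Bst2 had 4254, 4574, 3852, 3082 and 3437 normalized counts in Mdm2 ASO libraries, against 4739, 5453, 4916, 5163 and 4688 in control ASO libraries. The highest Mdm2 ASO library was below the lowest control (log2 fold change -0.39 with SE 0.10, adjusted p = 0.0237). On HFHC it had 2465, 2764 and 3496 in Mdm2 ASO libraries, against 3774, 3897, 3873 and 3125 in control ASO libraries. Mdm2 ASO replicate 10 lay inside the control range (-0.34, adjusted p = 0.0701). Mx1 and Mx2 are dynamin-like GTPases that block viral nucleocapsids, and with all libraries in limma-trend they passed on neither diet. On CDAHFD, Mx1 had 111, 86.9, 142, 142 and 147 normalized counts in Mdm2 ASO libraries, against 229, 163, 155, 231 and 138 in control ASO libraries. The groups crossed at control ASO replicate 5 (-0.54, adjusted p = 0.0822). On HFHC Mx1 averaged 112 ± 26.4 in Mdm2 ASO libraries and 82.6 ± 7.4 in control ASO libraries (0.41, adjusted p = 0.119), and its difference between diets passed (-0.95, adjusted p = 0.0222).

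Mx2 averaged 408 ± 88.1 in Mdm2 ASO libraries and 384 ± 61.1 in control ASO libraries on CDAHFD (0.08, adjusted p = 0.789). On HFHC Mx2 averaged 127 ± 14.2 in Mdm2 ASO libraries and 161 ± 16.1 in control ASO libraries (-0.35, adjusted p = 0.0774), and all 3 Mdm2 ASO libraries were below all 4 controls. Mx2 passed on HFHC under quantile normalization (-0.56, adjusted p = 0.0117), and its difference passed under quantile normalization (0.66, adjusted p = 0.0343). Samd9l, a brake on translation in antiviral defence, did not pass on CDAHFD (-0.30, adjusted p = 0.144) or HFHC (0.20, adjusted p = 0.238).

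The Bst2 call on CDAHFD was lost without control ASO replicate 2 or 4 (log2 fold changes of -0.38 to -0.36, adjusted p from 0.0571 to 0.0683). Bst2 passed on HFHC without control ASO replicate 5 or Mdm2 ASO replicate 10 (log2 fold changes of -0.48 to -0.42, adjusted p from 0.0124 to 0.0458) and under quantile normalization (-0.30, adjusted p = 0.0382). The Mx1 difference was lost without Mdm2 ASO replicate 9 on HFHC (-0.78, adjusted p = 0.083) and under quantile normalization (-0.70, adjusted p = 0.0815). Mx1 passed on HFHC without Mdm2 ASO replicate 6-7 (0.59, adjusted p = 0.0311). On CDAHFD it passed in the fit of all 4 groups (-0.54, adjusted p = 0.0485) and by DESeq2 (-0.54, adjusted p = 0.0378). Samd9l passed on CDAHFD without Mdm2 ASO replicate 10 (-0.40, adjusted p = 0.0394) and on HFHC without Mdm2 ASO replicate 10 (0.33, adjusted p = 0.043). Its difference passed without Mdm2 ASO replicate 10 on HFHC or Mdm2 ASO replicate 10 on CDAHFD (differences of -0.63 to -0.60, adjusted p from 0.0185 to 0.032).

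Parp9, Parp14 and Dtx3l encode ADP-ribosyltransferases and a ubiquitin ligase, and Parp9 and Dtx3l act as a complex. Dtx3l fell on both diets. On CDAHFD, Dtx3l had 1050, 835, 1105, 963 and 801 normalized counts in Mdm2 ASO libraries, against 1236, 1564, 1347, 1490 and 1044 in control ASO libraries. Control ASO replicate 5 lay inside the Mdm2 ASO range (log2 fold change -0.49 with SE 0.12, adjusted p = 0.0181). On HFHC, Dtx3l had 804, 862 and 674 in Mdm2 ASO libraries, against 1004, 932, 1059 and 968 in control ASO libraries. These groups did not overlap (log2 fold change -0.35 with SE 0.10, adjusted p = 0.0206), and the difference did not pass (-0.14, adjusted p = 0.63). Parp14 on CDAHFD had 759, 748, 917, 762 and 743 normalized counts in Mdm2 ASO libraries, against 1046, 1057, 881, 1100 and 890 in control ASO libraries. Mdm2 ASO replicate 8 was above control ASO replicates 3 and 5 (log2 fold change -0.34 with SE 0.09, adjusted p = 0.0293). On HFHC Parp14 averaged 927 ± 139 in Mdm2 ASO libraries and 771 ± 79.5 in control ASO libraries (0.26, adjusted p = 0.134), and the diets differed (-0.60, adjusted p = 0.00807). Parp9 averaged 1110 ± 153 in Mdm2 ASO libraries and 1366 ± 175 in control ASO libraries on CDAHFD. It did not pass there (-0.30, adjusted p = 0.0888) or on HFHC (-0.14, adjusted p = 0.267).

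The Dtx3l call on CDAHFD was lost without control ASO replicate 2 or 4 (log2 fold changes of -0.44 to -0.43, adjusted p from 0.0502 to 0.0551). On HFHC it was lost without control ASO replicate 4 (-0.32, adjusted p = 0.06), under library-size scaling (-0.24, adjusted p = 0.159) and in a fit of all 4 groups (-0.35, adjusted p = 0.0591). Parp14 lost its CDAHFD call without control ASO replicate 1, 2 or 4 or Mdm2 ASO replicate 6, 7, 9 or 10 (log2 fold changes of -0.33 to -0.30, adjusted p from 0.054 to 0.0834). Parp14 passed on HFHC without Mdm2 ASO replicate 10 (0.39, adjusted p = 0.0234), and Parp9 passed on CDAHFD without control ASO replicate 5 or Mdm2 ASO replicate 8 (log2 fold changes of -0.37 each, adjusted p from 0.039 to 0.0493) and in the fit of all 4 groups (-0.30, adjusted p = 0.0449).

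Trim30a had the highest fold change of the 34 members on HFHC. In mouse, this TRIM protein damps signalling from Toll-like receptors to NF-kappa B. On HFHC, Trim30a had 451, 490 and 399 normalized counts in Mdm2 ASO libraries, against 238, 231, 225 and 256 in control ASO libraries. The fitted ratio was 1.87, without overlap (log2 fold change 0.91 with SE 0.10, adjusted p = 1.2e-04). Its CDAHFD values were 232, 254, 289, 286 and 296 in Mdm2 ASO libraries, against 286, 373, 269, 359 and 324 in control ASO libraries. The CDAHFD groups overlapped (-0.24, adjusted p = 0.213), and the diets differed (-1.15, SE 0.16, adjusted p = 5.4e-05). Rtp4 is a receptor chaperone that also restricts some RNA viruses. On CDAHFD, Rtp4 had 327, 356, 419, 325 and 275 normalized counts in Mdm2 ASO libraries, against 492, 514, 391, 510 and 434 in control ASO libraries. Mdm2 ASO replicate 8 was above control ASO replicate 3 (log2 fold change -0.47 with SE 0.12, adjusted p = 0.0239). On HFHC, Rtp4 had 350, 419 and 354 in Mdm2 ASO libraries, against 306, 258, 308 and 273 in control ASO libraries. Every Mdm2 ASO library there exceeded every control (log2 fold change 0.39 with SE 0.11, adjusted p = 0.0225), and the difference passed (-0.85, SE 0.17, adjusted p = 0.00162). The Rtp4 call on CDAHFD was lost without control ASO replicate 1, 2 or 4 (log2 fold changes of -0.45 to -0.43, adjusted p from 0.0533 to 0.0697). On HFHC it was lost without control ASO replicate 2 or 5 or Mdm2 ASO replicate 9 (log2 fold changes of 0.30 to 0.36, adjusted p from 0.0551 to 0.105) and under quantile normalization (0.27, adjusted p = 0.0738).

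Ifi27, a small interferon-induced membrane protein, fell on HFHC, with 1239, 1448 and 1675 normalized counts in Mdm2 ASO libraries, against 2917, 2161, 1956 and 1909 in control ASO libraries. The lowest control was above the highest Mdm2 ASO library there (log2 fold change -0.61 with SE 0.16, adjusted p = 0.0155). On CDAHFD its values were 3039, 2827, 3869, 2051 and 2583 in Mdm2 ASO libraries, against 4490, 4263, 3345, 4445 and 3100 in control ASO libraries. The single Mdm2 ASO library that reached the control range was replicate 8 (-0.46, adjusted p = 0.0602). The difference between diets did not pass (0.14, adjusted p = 0.726). Ifi35, which binds the interferon-induced protein Nmi, had the highest fold change of the members on CDAHFD. It averaged 941 ± 75 in Mdm2 ASO libraries and 798 ± 47.9 in control ASO libraries there and did not pass (0.24, adjusted p = 0.0742), nor did it on HFHC (-0.0013, adjusted p = 0.992). Ifi44 did not pass on CDAHFD (-0.44, adjusted p = 0.0996) or HFHC (0.27, adjusted p = 0.34). Xaf1, a pro-apoptotic partner of the inhibitor XIAP, did not pass either (-0.28, adjusted p = 0.129 on CDAHFD and 0.10, adjusted p = 0.656 on HFHC).

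Ifi27 lost its HFHC call without Mdm2 ASO replicate 9 (-0.61, adjusted p = 0.0539). It passed on CDAHFD without control ASO replicate 3 or 5 or Mdm2 ASO replicate 8 (log2 fold changes of -0.58 to -0.52, adjusted p from 0.0243 to 0.0473). Ifi27 also passed there in the fit of all 4 groups (-0.46, adjusted p = 0.0464), under quantile normalization (-0.45, adjusted p = 0.0391), under library-size scaling (-0.48, adjusted p = 0.0291) and by DESeq2 (-0.44, adjusted p = 0.0399). Ifi44 passed on CDAHFD without control ASO replicate 5 (-0.55, adjusted p = 0.0434) and by DESeq2 (-0.45, adjusted p = 0.0467). The Ifi44 difference (-0.71, adjusted p = 0.0534) passed without control ASO replicate 1 on HFHC or Mdm2 ASO replicate 6-7 on HFHC or control ASO replicate 5 on CDAHFD or Mdm2 ASO replicate 8 on CDAHFD (differences of -0.85 to -0.76, adjusted p from 0.0223 to 0.0469). It also passed with a filter of at least 10 (-0.71, adjusted p = 0.0441), under library-size scaling (-0.83, adjusted p = 0.0271) and by DESeq2 (-0.69, adjusted p = 0.0409). Ifi35 passed on CDAHFD without Mdm2 ASO replicate 10 (0.28, adjusted p = 0.0442). It passed there too in the fit of all 4 groups (0.24, adjusted p = 0.0215) and by DESeq2 (0.24, adjusted p = 0.0388), and its difference passed under quantile normalization (0.32, adjusted p = 0.0338).

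**Figure D4:**
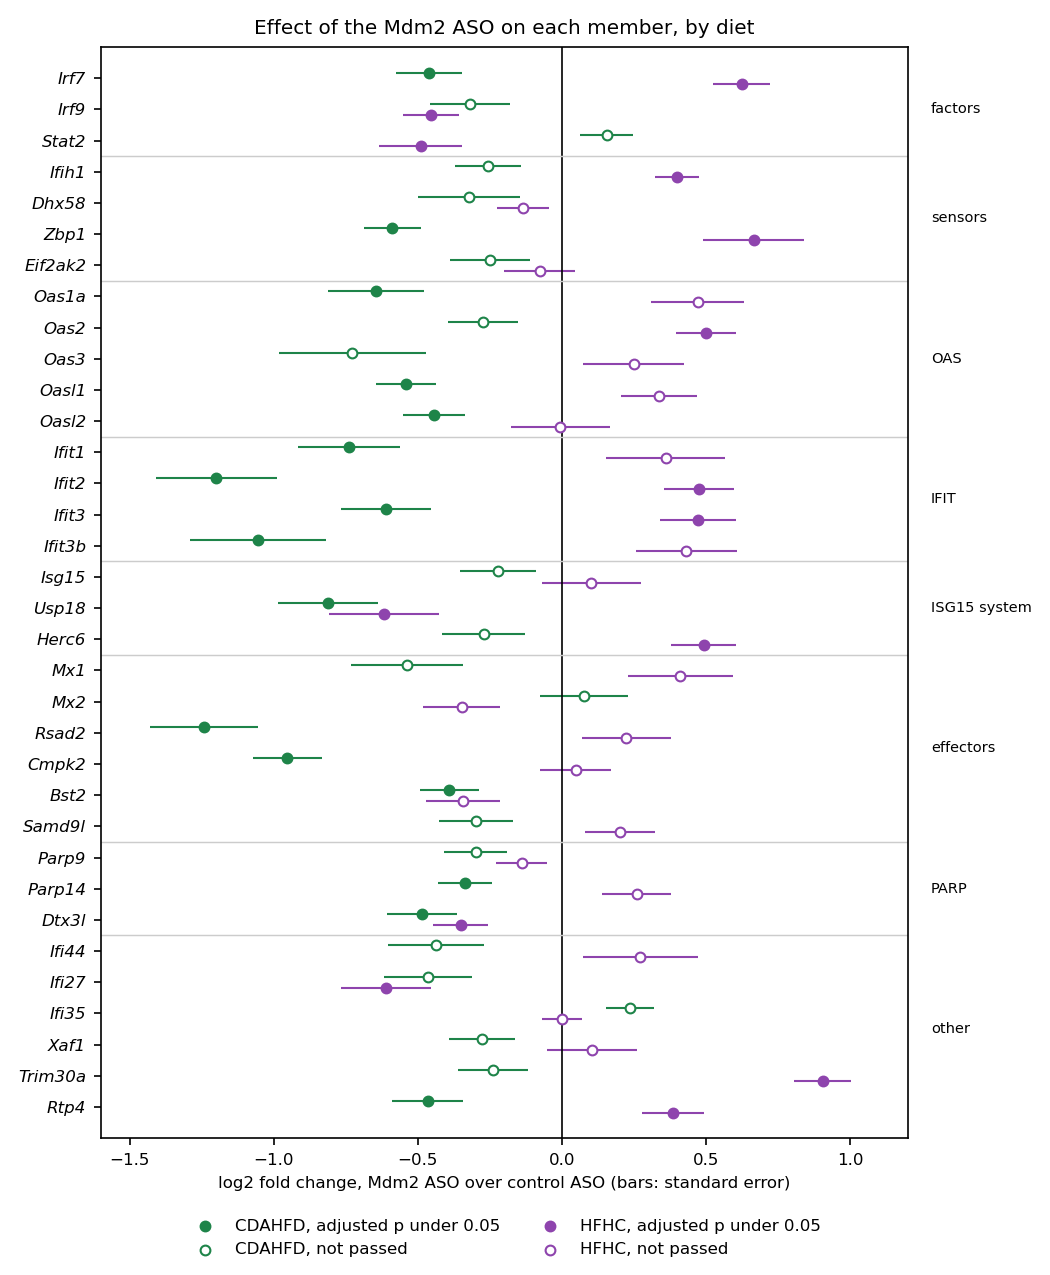
Log2 fold change of Mdm2 ASO over control ASO for each member (down the page, grouped by role), on CDAHFD (green) above HFHC (purple), with bars for the standard error and filled points where the adjusted p was under 0.05. The 16 filled green points all lie left of 0, and of the filled purple points 9 lie right of 0 and 5 left of it.

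The members also varied between libraries of 1 group. On CDAHFD, each Mdm2 ASO library had 30 to 33 of the 34 members below the control mean, with a median log2 deviation of -0.51 to -0.21, and replicate 8, the library nearest to the controls, was the highest of its group for 19 members. Among the CDAHFD controls, replicate 4, which had the most reads, was the highest for 16 members, and replicate 5 was the lowest for 18 members with 29 below the control mean. On HFHC, Mdm2 ASO replicate 9 was the highest of its 3 libraries for 28 members, with a median deviation of 0.35. Replicates 6-7 and 10 had median deviations of 0.05 and 0.07. Summed over the 34 members, normalized counts spanned 21123 to 27542 in Mdm2 ASO libraries and 26269 to 33000 in control ASO libraries on CDAHFD, which overlap. On HFHC the sums were 18179 to 20614 in Mdm2 ASO libraries and 18809 to 21142 in control ASO libraries. Genes with high counts, such as Bst2, Stat2 and Ifi27, weigh more in these sums than the others, so a sum need not follow the median member. Of the members that passed, 8 of 16 on CDAHFD, 4 of 14 on HFHC and 14 of 19 for the difference passed under every alternative run.

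Transcripts of the interferons themselves were hardly seen. Of 21 interferon genes (alpha, beta, lambda, gamma and their relatives), 19 were at 0 in every CDAHFD library and 18 in every HFHC library, and 1 could be tested on each diet and did not pass (Ifnk on CDAHFD and Ifng on HFHC). Ifnb1, the gene of interferon beta, had 0 reads in all 10 CDAHFD libraries and was above 0 in 1 HFHC library, control ASO replicate 4. A transcript at 0 was not detectable at these depths, which does not show that the gene is silent. Of 9 genes of the receptors and the JAK kinases, 2 fell (22.2%) and 0 rose on CDAHFD, where 6.86% of all genes tested fell and 6.12% rose. On HFHC 4 rose (44.4%) and 0 fell, where 16.8% of all genes tested rose and 13.8% fell. Ifnar2, the receptor chain that Usp18 binds, had 482, 357, 350, 490 and 418 normalized counts in Mdm2 ASO libraries, against 572, 640, 577, 613 and 464 in control ASO libraries on CDAHFD (log2 fold change -0.46 with SE 0.12, adjusted p = 0.0263), with control ASO replicate 5 inside the Mdm2 ASO range. Ifngr2, a chain of the interferon gamma receptor, averaged 628 ± 65.5 in Mdm2 ASO libraries and 873 ± 163 in control ASO libraries on CDAHFD (-0.46, adjusted p = 0.0247). Both calls were lost without control ASO replicate 2 or 4 or Mdm2 ASO replicate 7 or 8 (log2 fold changes of -0.43 to -0.39 for Ifnar2 and -0.44 to -0.37 for Ifngr2, adjusted p from 0.055 to 0.076). Ifnar2 did not pass on HFHC, and Ifnar1 passed on neither diet. On HFHC, Ifnlr1, the interferon lambda receptor chain, averaged 329 ± 11.1 in Mdm2 ASO libraries and 36.2 ± 15.9 in control ASO libraries (log2 fold change 3.28 with SE 0.32, adjusted p = 5.3e-05). Ifngr1 averaged 975 ± 98.6 in Mdm2 ASO libraries and 518 ± 78.4 in control ASO libraries there (0.92, adjusted p = 5.2e-04), and Jak2 (0.45, adjusted p = 0.00485) and Jak1 (0.29, adjusted p = 0.00726) rose as well.

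Of 15 genes that sense nucleic acid and induce interferon, 0 passed on CDAHFD and 8 rose and 2 fell on HFHC. The HFHC shares were 53.3% higher and 13.3% lower, where 16.8% of all genes tested rose and 13.8% fell, so the share that fell was near the background. Irf5, a factor downstream of Toll-like receptors, averaged 757 ± 88.6 in Mdm2 ASO libraries and 228 ± 25.2 in control ASO libraries on HFHC (log2 fold change 1.73 with SE 0.12, adjusted p = 5.8e-06). The adaptor Myd88 averaged 1020 ± 44.7 in Mdm2 ASO libraries and 551 ± 34.4 in control ASO libraries (0.89, adjusted p = 2.6e-05), the kinase Ikbke rose as well (0.77, adjusted p = 1.3e-04), and Tlr9, a DNA receptor of immune cells, averaged 88 ± 7.49 in Mdm2 ASO libraries and 14.1 ± 5.36 in control ASO libraries (2.69, adjusted p = 3.3e-04). Irf3, the factor that starts interferon beta transcription, fell on HFHC (-0.32, adjusted p = 0.0101) and did not pass on CDAHFD (0.18, adjusted p = 0.177), and its difference passed (0.50, adjusted p = 0.00337). The Irf3 call on HFHC was lost without Mdm2 ASO replicate 9 (-0.30, adjusted p = 0.0516) and under library-size scaling (-0.22, adjusted p = 0.0657), and Irf3 passed on CDAHFD without Mdm2 ASO replicate 9 (0.24, adjusted p = 0.0437). Of 10 tested brakes on the response besides Usp18, 1 rose and 1 fell on CDAHFD (10.0% each), where 6.12% of all genes tested rose and 6.86% fell. On HFHC 3 of these brakes rose (30.0%) and 1 fell (10.0%), beside 16.8% and 13.8% of all genes tested. Socs3, an inhibitor of JAK kinases, rose on CDAHFD (1.01, adjusted p = 0.0434) and HFHC (1.25, adjusted p = 2.4e-04). Ptpn6, the phosphatase SHP-1 of blood cells, averaged 3012 ± 341 in Mdm2 ASO libraries and 608 ± 49.2 in control ASO libraries on HFHC (2.30, adjusted p = 3.1e-07). Pias1, which restrains STAT binding to DNA, averaged 579 ± 28.9 in Mdm2 ASO libraries and 340 ± 4.66 in control ASO libraries there (0.76, adjusted p = 6.0e-05). Rnf125, a ligase that marks RNA sensors for degradation, fell on CDAHFD (-1.36, adjusted p = 0.0197) and HFHC (-0.56, adjusted p = 0.0106). The Socs3 call on CDAHFD was lost without control ASO replicate 2, 3 or 4 or Mdm2 ASO replicate 7, 8 or 10 (log2 fold changes of 0.74 to 1.05, adjusted p from 0.0692 to 0.113), with no filter (1.01, adjusted p = 0.0527) and by DESeq2 (1.03, adjusted p = 0.0515). The Rnf125 call was lost on CDAHFD without control ASO replicate 2 or Mdm2 ASO replicate 7 or 8 (log2 fold changes of -1.26 to -1.14, adjusted p from 0.0523 to 0.0566). On HFHC it was lost without Mdm2 ASO replicate 9 (-0.45, adjusted p = 0.0522) and in a fit of all 4 groups (-0.56, adjusted p = 0.287).

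A separate list of 49 tested interferon-stimulated genes outside the 34 had 7 lower and 1 higher on CDAHFD and 3 lower and 22 higher on HFHC. Of all genes tested, 6.86% fell and 6.12% rose on CDAHFD, and 13.8% fell and 16.8% rose on HFHC. In this list the shares were 14.3% lower and 2.04% higher on CDAHFD, and 6.12% lower and 44.9% higher on HFHC. Ly6e, a surface protein that limits viral entry, averaged 7601 ± 866 in Mdm2 ASO libraries and 13563 ± 1022 in control ASO libraries on CDAHFD (log2 fold change -0.84 with SE 0.10, adjusted p = 2.1e-04). It averaged 11811 ± 737 in Mdm2 ASO libraries and 7696 ± 300 in control ASO libraries on HFHC (log2 fold change 0.62 with SE 0.09, adjusted p = 6.2e-04). Lgals3bp fell on CDAHFD (-0.67, adjusted p = 0.00269), as did Tor3a (-0.75, adjusted p = 0.00435), and Parp10 rose (0.44, adjusted p = 0.00678). On HFHC, Ifit1bl1, a relative of Ifit1, averaged 497 ± 51 in Mdm2 ASO libraries and 8.34 ± 3.28 in control ASO libraries (log2 fold change 5.89 with SE 0.29, adjusted p = 8.0e-07). Of 11 genes better known as interferon gamma targets, 4 fell on CDAHFD (Icam1, Gbp6, Cxcl9 and Gbp2, with log2 fold changes of -0.87 to -0.64) and 4 rose on HFHC (Cd274, Gbp2, Psmb8 and Psmb9, from 0.43 to 1.85). On CDAHFD, the Cxcl9 call was lost without control ASO replicate 4 or Mdm2 ASO replicate 8 (log2 fold changes of -0.74 to -0.72, adjusted p from 0.058 to 0.0611). The Gbp2 call was lost without control ASO replicate 2, 4 or 5 or Mdm2 ASO replicate 7 or 8 (log2 fold changes of -0.82 to -0.69, adjusted p from 0.0531 to 0.0737). On HFHC, the Psmb9 call was lost without control ASO replicate 2 or 5 or Mdm2 ASO replicate 9 or 10 (log2 fold changes of 0.34 to 0.40, adjusted p from 0.0826 to 0.147) and under quantile normalization (0.36, adjusted p = 0.0561). Irf1, an early interferon gamma target, passed on neither diet.

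**Figure D5:**
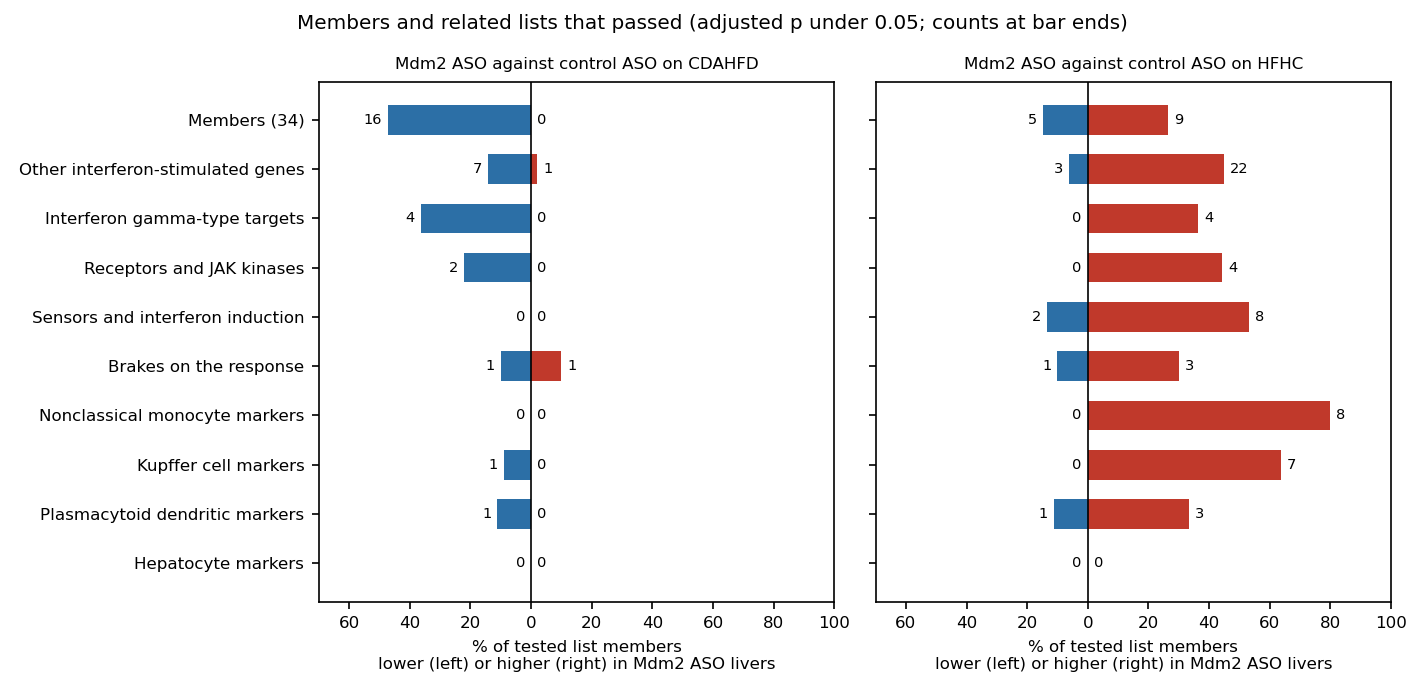
Percent of the tested genes of each list that fell (blue, left) or rose (red, right) in Mdm2 ASO libraries, on CDAHFD (left panel) and HFHC (right panel), with the number of genes at the bar ends. The members have 16 lower and 0 higher on CDAHFD and 5 lower and 9 higher on HFHC, beside 8 of 10 nonclassical monocyte and 7 of 11 Kupffer cell markers higher on HFHC. The Kupffer cell list was uneven there, with log2 fold changes from -0.06 for Timd4 to 2.36 for C1qb.

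Markers of immune cells moved with the ASO on HFHC and hardly on CDAHFD. For scale, 16.8% of all genes tested rose and 13.8% fell on HFHC, and 6.12% rose and 6.86% fell on CDAHFD. Of 10 markers of nonclassical monocytes 8 rose on HFHC, with summed counts of 17481 to 20407 in Mdm2 ASO libraries and 1352 to 2758 in control ASO libraries. Of 11 Kupffer cell markers 7 rose there and 4 did not pass (35213 to 40565 in Mdm2 ASO libraries and 8904 to 14506 in control ASO libraries). The HFHC log2 fold changes of this list were uneven, from -0.06 for Timd4, 0.32 for Clec4f and 0.60 for Vsig4 up to 2.36 for C1qb. Of 12 markers of inflammatory monocytes and neutrophils 10 rose on HFHC (6341 to 8529 in Mdm2 ASO libraries and 2552 to 5029 in control ASO libraries). On CDAHFD, 0 of 10, 1 of 11 (Cd5l, lower) and 0 of 11 of these lists passed. Of 9 markers of plasmacytoid dendritic cells, the professional producers of interferon alpha, 3 rose and 1 fell on HFHC and 1 fell on CDAHFD, the one that fell on both being Ly6d. Their sums were 1677 to 2677 in Mdm2 ASO libraries and 3143 to 5610 in control ASO libraries on CDAHFD, and 1018 to 1113 in Mdm2 ASO libraries and 2306 to 3724 in control ASO libraries on HFHC, without overlap on either diet. Ly6d made up most of the control sums, with means of 1683 ± 367 in Mdm2 ASO libraries and 3666 ± 975 in control ASO libraries on CDAHFD and 498 ± 92.7 in Mdm2 ASO libraries and 2839 ± 631 in control ASO libraries on HFHC. On HFHC, 8 of the 9 markers had a fold change above 0, with a median of 0.95, and on CDAHFD 4 of the 9 did, with a median of -0.06. Markers of conventional dendritic cells (4 of 7), B cells (5 of 7) and T and NK cells (4 of 9) rose on HFHC. So did those of sinusoidal endothelium (7 of 9) and stellate cells (6 of 8), whereas those of cholangiocytes (4 of 6) fell. On CDAHFD Ighm, Stab1 and Ecm1 were the 3 that rose in these lists and 0 fell. Of the 6 cholangiocyte markers on CDAHFD, 5 had a fold change above 0 and 1 below (median 1.07). An unadjusted p under 0.05 was found for 5 of them. Their difference between diets passed for 5 of 6, each higher on CDAHFD (median 2.13). All 7 B cell and all 9 sinusoidal endothelium markers had a fold change above 0 on CDAHFD (medians 0.59 and 0.50). None of these marker genes was at 0 in all libraries. Mitochondrially encoded transcripts were lower on HFHC for 10 of 13 genes, at 662299 to 774013 summed counts in Mdm2 ASO libraries and 1228745 to 1506256 in control ASO libraries, and all 7 red cell markers rose. On CDAHFD the mitochondrial sums were 1393725 to 3148311 in Mdm2 ASO libraries and 1594141 to 2213066 in control ASO libraries. The part of these shifts in the interferon-stimulated genes was not tested.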

How the data were processed

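The deposited values are a signal per gene and sample, counts that the authors scaled by TMM within each diet; per the submitters' processing notes they used STAR 2.7.10b, featureCounts from Subread 2.0.3 and GRCm39. Extraction used a column kit and the library was strand-specific, per the labels' protocols; the strand setting of the counting is not given in the sources used here. Dividing each sample by its smallest step gave whole reads for all values within 0.001, and these recovered reads served the count tests. The identical pair on HFHC was merged.

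Values were tested with limma-trend 3.58.1 in R 4.3.3 on log2(value + 0.5), over genes whose value reached 1 in a number of libraries equal to the size of the smaller group, within each diet, and for the difference in 1 fit over all libraries. P-values were adjusted by Benjamini-Hochberg over all genes tested. The alternatives were edgeR 4.0.16 and DESeq2 1.42.0 on the recovered reads, library-size scaling, quantile normalization, pseudocounts of 1 and 2, no filter or a minimum of 10, all 4 groups in 1 fit, a replicate block, and leaving out each library. The tests were tried on simulated data with planted changes larger than most member fold changes here. That trial does not show how often changes of the members' size are found. Every member is accounted for, with values per library for those that passed, and of each other interferon list up to 4 genes per comparison are named by smallest p, beside a few named regulators. The members and lists were chosen with earlier results of these data known.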

Additional observations from a re-analysis of the deposited data

Results flagged for a closer look

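Of 102 sets of 4 or 5 libraries (the 34 members in 3 groups), 6 held a library whose gap to its nearest neighbour took up most of the group's range by Dixon's test on the log2 scale, and chance alone gives about 1 in 20. On CDAHFD, Mdm2 ASO replicate 8 was high for Ifit1 (gap over range 0.732) and Parp14 (0.881), and control ASO replicate 5 was low for Irf9 (0.805). On HFHC, control ASO replicate 1 was high for Ifit2 (0.854), control ASO replicate 4 was high for Herc6 (0.843) and control ASO replicate 5 was low for Bst2 (0.855).

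The fold changes of 19 members differed between the diets by the interaction test of limma-trend over all genes (adjusted p under 0.05), with the CDAHFD fold change minus the HFHC fold change in log2 units. Those with the lower fold change on CDAHFD were Irf7 (-1.08), Ifih1 (-0.66), Zbp1 (-1.25), Oas1a (-1.12), Oas2 (-0.77), Oas3 (-0.98), Oasl1 (-0.88), Ifit1 (-1.10), Ifit2 (-1.68), Ifit3 (-1.08), Ifit3b (-1.49), Herc6 (-0.76), Mx1 (-0.95), Rsad2 (-1.47), Cmpk2 (-1.0), Parp14 (-0.60), Trim30a (-1.15), Rtp4 (-0.85). Stat2 (0.64) had the higher fold change on CDAHFD.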

How the results depend on the processing

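Of the members that passed, 8 of 16 on CDAHFD, 4 of 14 on HFHC and 14 of 19 for the difference passed under every alternative run. Leaving out 1 library in turn gave 0 to 1 members higher and 8 to 21 lower on CDAHFD, 5 to 11 higher and 2 to 5 lower on HFHC, and 1 to 1 higher and 16 to 19 lower for the difference. Over all genes it gave 1232 (without control ASO replicate 2) to 2283 calls on CDAHFD, where 2181 were made with all libraries and 1426 without Mdm2 ASO replicate 8, 3684 to 5021 on HFHC and 3084 to 4029 for the difference. On CDAHFD, 1 member was higher in the fit of all 4 groups and by DESeq2. On HFHC, 1 member, Ifi27, was lower and 11 were higher under library-size scaling, and 6 were lower and 6 higher under quantile normalization. For the difference, 3 members (Stat2, Mx2 and Ifi35) were higher under quantile normalization and 0 under library-size scaling, which move the median of all genes to 0.102 and -0.11. The share of all difference calls that were higher was 41.9% as deposited, 55.4% under quantile normalization and 26.6% under library-size scaling.

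Among the members, signs turned for fold changes near 0 that did not pass. Library-size scaling gave 0.03 for Eif2ak2, 0.10 for Oasl2 and 0.11 for Ifi35 on HFHC, edgeR gave 0.00 for Ifi35, and quantile normalization gave -0.04 for Isg15, -0.12 for Cmpk2 and -0.06 for Xaf1. Leaving out 1 library gave -0.14 to 0.04 for Eif2ak2, -0.16 to 0.10 for Oasl2, -0.01 to 0.23 for Isg15, -0.02 to 0.11 for Cmpk2, -0.02 to 0.02 for Ifi35 and -0.04 to 0.19 for Xaf1 on HFHC, -0.02 to 0.15 for Mx2 on CDAHFD, and -0.16 to 0.09 for the Bst2 difference. Where a value or call changed, the cause was not tested.

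The labels do not say whether replicate numbers pair libraries across diets. Same-numbered libraries correlated at -0.206 to 0.232, and differently numbered ones of the same treatment at -0.425 to 0.344. Library 6-7 counted as number 6 here and in the replicate block, although which sample its values came from is not known. Its correlation with Mdm2 ASO replicate 7 on CDAHFD was 0.124. With so few libraries these values cannot decide whether the numbers mark a pairing. With the number as a replicate block, the difference had 3033 calls over all genes, against 3832 without it, and 1 member higher and 17 lower. Oas1a (-0.98, adjusted p = 0.051) and Oas3 (-0.75, adjusted p = 0.129) did not pass under the block, Ifi44 (-0.76, adjusted p = 0.0353) did, and the Ifi27 difference was -0.06. Depth was 22.4 to 31.5 M reads on CDAHFD and 17.8 to 18.8 M on HFHC. DESeq2 gave no adjusted p for Herc6 on HFHC.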
